A study of Mus musculus with 49 samples.

Results

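The genes of tau kinases and of the main tau phosphatase are described here: Gsk3a, Gsk3b, Cdk5, Cdk5r1, Mark1, Mark2, Mark3, Dyrk1a, Fyn and Ppp2ca, 10 of 11807 named genes on the array. All probe sets whose platform gene symbol was 1 of these 10 were taken, which gave 24 probe sets of 22626 tested. Another 2 probe sets are listed for both Mark4 and Mark3 and were not counted. Transcripts of 3 hippocampal neuron layers were measured on 49 Affymetrix HT-MG-430A arrays. The CA1 and CA3 pyramidal layers and the dentate granule layer (DG) were cut out by laser capture from 17 female mice aged 6.1 months. The rTg4510 mice (6) carried the tetracycline transactivator tTA under the CaMKIIα promoter, which is active in forebrain excitatory neurons, together with a tTA-responsive transgene for human tau with the P301L mutation. The tTA mice (5) carried the transactivator alone, and the DN (double negative) mice (6) carried neither transgene. The breeders with the tau transgene were FVB/N and the tTA breeders of another inbred strain, so all 3 groups had a mixed background. For CA1 there were 5 rTg4510, 5 tTA and 6 DN arrays, for CA3 there were 6 rTg4510, 5 tTA and 5 DN arrays, and for DG there were 6 rTg4510, 5 tTA and 6 DN arrays, each from a different mouse of its group.

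Tau is a microtubule-binding protein whose hold on microtubules is loosened when kinases add phosphate to it and restored when phosphatases take phosphate off. Several serine and threonine kinases act on it, among them glycogen synthase kinase 3 (GSK3), the cyclin-dependent kinase CDK5 with its activator p35, the microtubule-affinity regulating kinases (MARK) and DYRK1A. The tyrosine kinase FYN also phosphorylates tau, and protein phosphatase 2A (PP2A) is the main tau phosphatase of the brain. All of these enzymes are controlled largely at the protein level, by activators, subunits and their own phosphorylation, and an array reads only their transcripts.

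Values are RMA expression on the log2 scale, so a difference of 1 means a level 2 times as high, and RMA brings all arrays to one distribution. A probe set was called where its limma adjusted p was below 0.05, after Benjamini-Hochberg adjustment over all probe sets tested. A probe set is named dim where its group mean lay below 5.04, the median over probe sets, and differences of dim probe sets can be understated. Levels were compared only within a probe set. Expression of tau and insertion of its transgene cannot be told apart, since both separate rTg4510 from tTA mice. The 3 genotype comparisons share groups, and are given side by side.

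The captured layers carried the markers of their own neurons: the mean level of the CA1 pyramidal list was 8.44 to 9.43 in tTA CA1, against 5.47 to 7.01 in tTA CA3. In CA1 other cell types moved with genotype. Of 14 microglial markers 11 were called higher in rTg4510 than in tTA CA1, with a mean level of 6.39 to 7.40 in rTg4510 and 5.26 to 5.65 in tTA mice. The same held for 6 of 9 astrocyte, 6 of 10 oligodendrocyte, 5 of 9 endothelial and 6 of 8 interneuron markers, while all 4 CA1 pyramidal markers were called lower (6.40 to 8.03 in rTg4510, against 8.44 to 9.43 in tTA mice) and 0 of 8 pan-neuronal markers were called. In CA3 4 microglial and 1 astrocyte marker had a called rise in rTg4510 mice against tTA mice, and in DG 0 markers of these lists were called. In captured tissue fewer neurons and less RNA per neuron cannot be told apart.

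In the RefSeq annotation Mark2 lies on chromosome 19 (7275396 to 7341860), Cdk5r1 on chromosome 11 (80477023 to 80481184), Gsk3a on chromosome 7 (25228258 to 25237851), Cdk5 on chromosome 5 (24407597 to 24423587) and Fyn on chromosome 10 (39369743 to 39565381). Upstream sequence is shown for genes called in CA1 between rTg4510 and tTA mice and for Ppp2ca, whose probe sets varied least within groups. RefSeq windows (GRCm38.p6, the C57BL/6J reference and not the strains used) were found for 8 of the 10 genes. Cdk5 and Cdk5r1 are named only. Printed are the 150 bases before a transcript start of each gene, 5′ to 3′ on the gene's strand, at chr7:25237852-25238001 (minus strand) for Gsk3a, chr19:7341861-7342010 (minus strand) for the first start of Mark2, chr10:39369649-39369798 (plus strand) for Fyn and chr11:52098674-52098823 (plus strand) for Ppp2ca. Capitals mark matches on either strand to the GC box (GGGCGG or CCGCCC), the CCAAT box (CCAAT or ATTGG), the TATA box (TATAAA or TTTATA) and the cAMP response element (TGACGTCA).
Gsk3a: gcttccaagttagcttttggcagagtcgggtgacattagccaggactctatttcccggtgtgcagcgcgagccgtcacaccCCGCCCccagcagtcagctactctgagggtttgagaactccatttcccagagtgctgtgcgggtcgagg
Mark2: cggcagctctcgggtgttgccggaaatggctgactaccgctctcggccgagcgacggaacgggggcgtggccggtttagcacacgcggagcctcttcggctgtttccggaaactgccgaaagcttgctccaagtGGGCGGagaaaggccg
Fyn: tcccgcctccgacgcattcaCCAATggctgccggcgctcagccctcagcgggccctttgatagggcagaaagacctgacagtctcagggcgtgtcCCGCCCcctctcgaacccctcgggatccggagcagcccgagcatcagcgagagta
Ppp2ca: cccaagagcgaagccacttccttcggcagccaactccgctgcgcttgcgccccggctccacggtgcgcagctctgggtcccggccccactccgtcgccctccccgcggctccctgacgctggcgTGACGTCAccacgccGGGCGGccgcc

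All 4 windows held 1 GC box. The Fyn window precedes a transcript start that lies inside the annotated gene, which begins at 39369743. The end of this window, with its GC box, is therefore within the annotated gene. A GC box was present in 28.6% of all 32851 windows of this length. Fyn also had 1 CCAAT box, as did 24.5% of windows, and Ppp2ca had 1 cAMP response element, as did 1.36%. None of the 4 held a TATA box, which 7.57% of windows did. These matches are letters in a window and say nothing of which factors bind there.

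**Figure D1:**
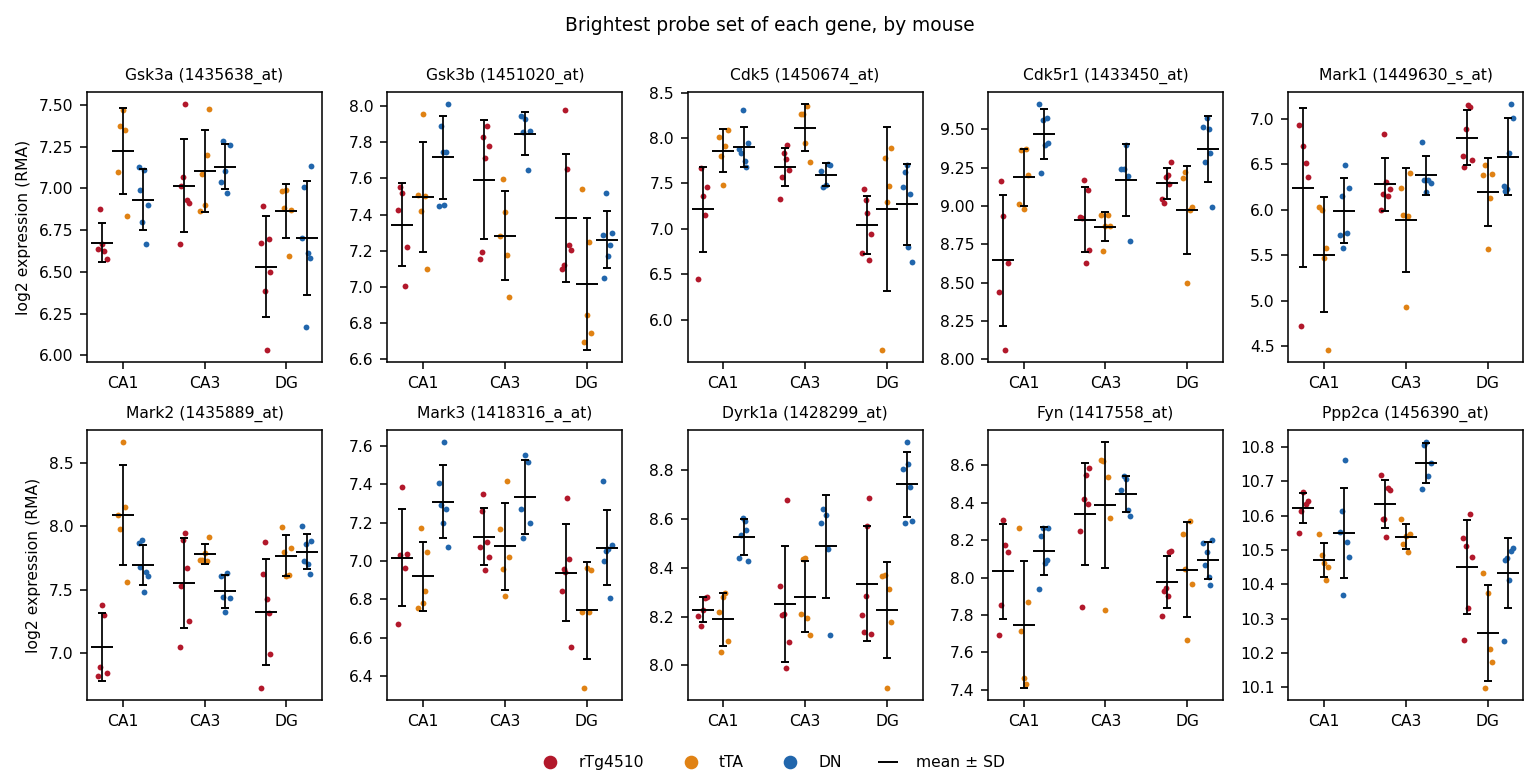
Log2 expression (RMA) of the brightest probe set of each of the 10 genes, 1 point per mouse, in CA1, CA3 and DG, with rTg4510, tTA and DN from left to right and black bars for the mean ± SD. In CA1 the rTg4510 points of Mark2 lie at 6.83 to 7.38, below the tTA points at 7.57 to 8.67, whereas the Ppp2ca points of all genotypes stay between 10.37 and 10.76.

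Mutant tau was assessed against tTA mice, so that both groups carried the transactivator. In CA1, 6 of the 24 probe sets were called (1 higher and 5 lower in rTg4510), where 10.6% of all probe sets were called (6.01% higher, 4.62% lower). They belonged to 5 genes: Mark2, Cdk5r1, Gsk3a and Cdk5 were lower in rTg4510 CA1, and 1 probe set of Fyn was higher. The median difference over the 24 was -0.11, against -0.03 over all probe sets. In CA3 and DG 0 of the 24 were called, where 1.13% and 0.782% of all probe sets were called; at an unadjusted p under 0.05 there were 3 in CA3 and 8 in DG. The least significant difference test of the study's methods also called 0 in both. In DG the model of all 9 groups with the mouse as a block called 1, Dyrk1a 1426226_at (0.81, adjusted p = 0.0419), and leaving out rTg4510 mouse4549 brought in Cdk5r1 1421123_at (1.10, adjusted p = 0.0473).

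Mark2, a kinase that detaches tau from microtubules by phosphorylating its repeat region, had the largest difference of the 24 in CA1. Probe set 1435889_at read 6.83, 6.89, 7.38, 7.31 and 6.85 in rTg4510 CA1, against 8.09, 7.98, 8.67, 8.15 and 7.57 in tTA CA1. DN CA1 arrays read 7.48 to 7.89 (median 7.66), mostly below the tTA arrays. The tTA minus DN difference in CA1 was called only without tTA mouse4637 (0.53, adjusted p = 0.0307). In CA3 it was called only with the compared genotypes alone (0.29, adjusted p = 0.0481). No rTg4510 array reached the lowest tTA or DN array. The difference from tTA mice was -1.04 (SE 0.17, adjusted p = 0.00146), a level 0.486 times that of tTA mice, and it was called with any 1 mouse left out and under each of the 9 other settings tried. In CA3 the means were 7.56 ± 0.35 in rTg4510 (SD, n = 6) and 7.78 ± 0.08 in tTA mice (SD, n = 5), and in DG 7.33 ± 0.42 and 7.77 ± 0.16 (SD, n = 6 and 5), neither called (0.475 and 0.183 as adjusted p). The CA1 difference minus the CA3 difference was -0.81 (SE 0.21, adjusted p = 0.0200), and it lost its call when any 1 of tTA mouse4592 and mouse4626 was left out (adjusted p 0.0523 to 0.0680). The CA1 difference minus the DG difference was not called with all mice. It was called without rTg4510 mouse4535 (-0.66, adjusted p = 0.0452) and without tTA mouse4637 (-0.74, adjusted p = 0.0356).

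The other Mark2 probe sets did not show it. Probe set 1415952_at averaged 5.86 ± 0.21 in rTg4510 and 6.00 ± 0.14 in tTA CA1 (SD, n = 5 each), a difference of -0.13 (SE 0.12, adjusted p = 0.540). Probe set 1415953_s_at was dim in all 9 groups, at 3.10 ± 0.20 in rTg4510 and 3.42 ± 0.37 in tTA CA1 (SD, n = 5 each). Over the 49 arrays 1435889_at correlated with 1415952_at at r = 0.33 and with 1415953_s_at at r = 0.23, a description of arrays that share normalization. With the 3 probe sets averaged, Mark2 was still called in CA1 (-0.50, adjusted p = 0.00362). The CA1 difference minus the CA3 difference was then not called (-0.36, adjusted p = 0.208), nor was the CA1 difference minus the DG difference (-0.40, adjusted p = 0.137).

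Cdk5r1 encodes p35, the best known neuronal activator of CDK5. Its probe set 1433451_at read 7.29, 7.91, 8.22, 7.71 and 7.78 in rTg4510 CA1, against 8.42, 8.69, 8.37, 8.39 and 8.35 in tTA CA1 and 8.67 to 9.12 (median 8.92) in DN CA1. All rTg4510 arrays lay under all tTA arrays, and tTA arrays lay mostly under DN arrays. The difference between rTg4510 and tTA mice was -0.66 (SE 0.14, adjusted p = 0.00630), and it was called with any 1 mouse left out and under each of the 9 other settings. In CA3 and DG the groups overlapped, with rTg4510 means of 8.18 ± 0.21 and 8.31 ± 0.33 (SD, n = 6 each), against tTA means of 8.23 ± 0.17 and 8.23 ± 0.13 (SD, n = 5 each).

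The brighter Cdk5r1 probe set, 1433450_at, read 8.44, 9.16, 8.94, 8.06 and 8.63 in rTg4510 CA1, against 9.02, 9.37, 8.98, 9.37 and 9.20 in tTA CA1. Here 1 rTg4510 array, at 9.16, lay among the tTA arrays. The difference of -0.54 (SE 0.17, adjusted p = 0.0478) stood at the threshold: it lost its call without any 1 of 13 of 16 mice (adjusted p 0.0505 to 0.106) and kept it only without rTg4510 mouse4549 and mouse4600 and tTA mouse4592, and was also lost with only the compared genotypes, with the Actb ratio and by the methods' least significant difference test on log2 or anti-log values (adjusted p 0.0770 to 0.183). The dim probe sets 1421123_at (-0.09, SE 0.23, adjusted p = 0.857) and 1421124_at (-0.42, SE 0.16, adjusted p = 0.0990) were not called between rTg4510 and tTA CA1.

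Tests of the difference between subfields bore on the same Cdk5r1 probe sets. The rTg4510 minus tTA difference in CA1 minus that in DG was -0.73 (SE 0.18, adjusted p = 0.00999) for 1433451_at and -0.72 (SE 0.19, adjusted p = 0.0144) for 1433450_at, with 5.45% of all probe sets called in this test. The first was called whichever mouse was left out, and the second lost its call when any 1 of rTg4510 mouse4653 and tTA mouse4626 was left out (adjusted p 0.0518 to 0.0626). Against CA3, where 3.88% of all probe sets were called, 1433451_at differed by -0.60 (SE 0.18, adjusted p = 0.0469), and this lost its call without any 1 of 14 of 17 mice (adjusted p 0.0507 to 0.142) and kept it only without rTg4510 mouse4549 and mouse4600 and DN mouse4806. Between CA3 and DG 0 of the 24 were called (0.00884% of all probe sets), with 2 at an unadjusted p under 0.05 in limma. The share of all probe sets at that unadjusted threshold was not counted.

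Cdk5 itself, the kinase that p35 activates, had 2 probe sets. The brighter, 1450674_at, read 6.45, 7.67, 7.36, 7.15 and 7.46 in rTg4510 CA1, against 8.01, 7.80, 7.48, 7.91 and 8.09 in tTA CA1. The lowest value, 6.45, came from mouse4535, and the highest rTg4510 value, 7.67, overlapped the tTA range. The difference of -0.64 (SE 0.19, adjusted p = 0.0394) lost its call when any 1 of rTg4510 mouse4535 and mouse4653, tTA mouse4570, mouse4580, mouse4626 and mouse4637 and DN mouse4797, mouse4806 and mouse4886 was left out (adjusted p 0.0504 to 0.0867). It was also lost with only the compared genotypes, in the 9-group model with the mouse as a block, with the Actb ratio and by the methods' least significant difference test on log2 or anti-log values (adjusted p 0.0699 to 0.129), and Cdk5 was not called with its probe sets averaged (-0.41, adjusted p = 0.102). The other probe set, 1422590_at, was dim at 4.67 ± 0.22 in rTg4510 and 4.85 ± 0.42 in tTA CA1 (SD, n = 5 each) and was not called (0.569 as adjusted p). In CA3 1450674_at averaged 7.68 ± 0.21 in rTg4510 (SD, n = 6) and 8.11 ± 0.26 in tTA mice (SD, n = 5), a difference of -0.43 (SE 0.12, adjusted p = 0.0976) that was called only without tTA mouse4637 (adjusted p = 0.041).

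Of the 2 GSK3 kinases, Gsk3a differed in CA1. Its only probe set, 1435638_at, read 6.64, 6.88, 6.67, 6.63 and 6.58 in rTg4510 CA1, against 7.10, 7.37, 7.47, 7.35 and 6.84 in tTA CA1 and 6.67 to 7.13 (median 6.94) in DN CA1. The rTg4510 and tTA ranges met only at 6.88 and 6.84. The difference from tTA mice was -0.55 (SE 0.12, adjusted p = 0.00903), called with any 1 mouse left out and under each of the 9 other settings. DN CA1 lay between them, and neither rTg4510 (-0.26, SE 0.12, adjusted p = 0.128) nor tTA (0.29, SE 0.12, adjusted p = 0.0964) differed from it by the test. The tTA minus DN difference was called after a second normalization (0.39, adjusted p = 0.0415) and without tTA mouse4637 (0.39, adjusted p = 0.0259). In CA3 and DG the rTg4510 minus tTA differences of Gsk3a were -0.09 and -0.33, neither called. The CA1 difference did not differ from either by the test. Gsk3b, the better known tau kinase of the pair, averaged 7.35 ± 0.23 in rTg4510 CA1 and 7.50 ± 0.31 in tTA CA1 (SD, n = 5 each), with a difference of -0.15 (SE 0.15, adjusted p = 0.598).

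Fyn, a Src family kinase that tau also brings to the postsynaptic side, was higher in rTg4510 CA1 at 1 of its 2 probe sets. Probe set 1448765_at read 7.73, 7.42, 7.59, 7.39 and 7.79 in rTg4510 CA1, against 7.25, 6.83, 6.68, 6.91 and 7.29 in tTA CA1 and 6.61 to 7.19 (median 7.01) in DN CA1. Each rTg4510 array exceeded each tTA and DN array. The difference from tTA mice was 0.60 (SE 0.14, adjusted p = 0.0108), 1.51 times the tTA level, called with any 1 mouse left out and under each of the 9 other settings. In CA3 it was 0.17 (SE 0.09, adjusted p = 0.398), and the CA1 difference minus this one, 0.41 (SE 0.15, adjusted p = 0.129), was not called. In DG it was -0.08 (SE 0.11, adjusted p = 0.802), and the CA1 difference exceeded it by 0.66 (SE 0.15, adjusted p = 0.00543), also called whichever mouse was left out. The brighter Fyn probe set, 1417558_at, had 7.69, 7.86, 8.31, 8.17 and 8.14 in rTg4510 CA1, against 8.26, 7.72, 7.47, 7.43 and 7.87 in tTA CA1, and was not called (0.28, SE 0.15, adjusted p = 0.262). The 2 probe sets correlated at r = 0.14 over the 49 arrays.

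Oligodendrocytes and immune cells also express Fyn. The oligodendrocyte markers had a mean level of 7.35 to 8.24 in rTg4510 CA1, against 6.35 to 7.39 in tTA CA1, so they moved in the direction of Fyn 1448765_at, and the CA1 pyramidal markers moved in the direction of Mark2, Cdk5r1, Gsk3a and Cdk5. Their part in these results was not tested. The ratio of the 3-prime to the 5-prime Actb control probe sets, a sign of RNA quality, averaged -0.48 in rTg4510, -0.70 in tTA and -0.37 in DN CA1 (log2). With this ratio in the model, the calls of Mark2, Cdk5r1 1433451_at, Gsk3a and Fyn were kept, and those of Cdk5 (adjusted p = 0.129) and Cdk5r1 1433450_at (adjusted p = 0.183) were not.

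**Figure D2:**
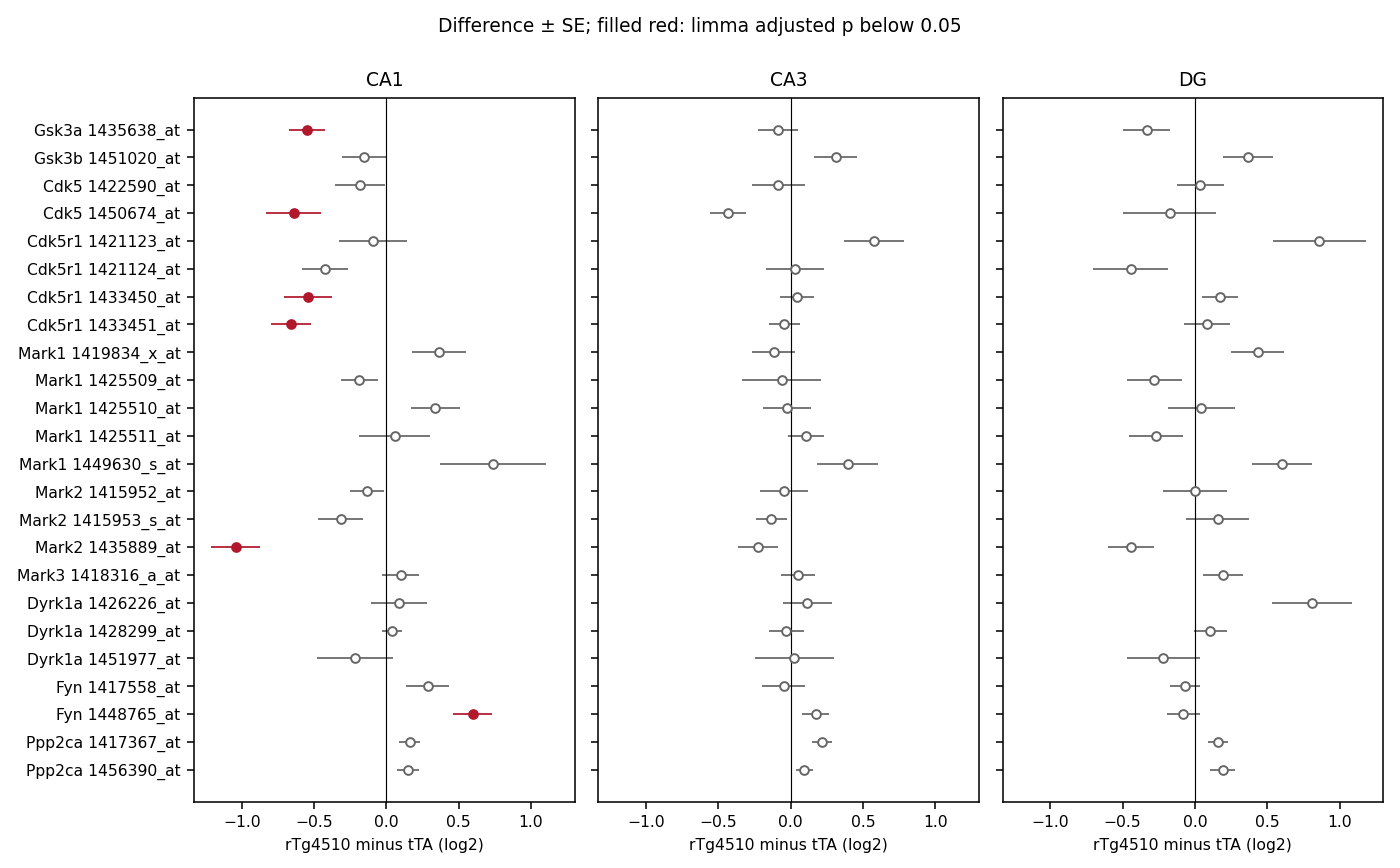
Difference between rTg4510 and tTA mice (log2, points with SE bars) for the 24 probe sets in CA1, CA3 and DG, filled red where the limma adjusted p was below 0.05. Red points occur only in CA1, from -1.04 for Mark2 1435889_at to 0.60 for Fyn 1448765_at.

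The remaining genes were not called between rTg4510 and tTA mice in any subfield. Ppp2ca, the catalytic subunit of PP2A, had the smallest median SD within groups of the 24: 1456390_at averaged 10.62 ± 0.04 in rTg4510 and 10.47 ± 0.05 in tTA CA1 (SD, n = 5 each), and 1417367_at averaged 10.13 ± 0.08 and 9.97 ± 0.12 (SD, n = 5 each). Both were higher by value in rTg4510 mice in all 3 subfields, by 0.09 to 0.22 log2 units, with adjusted p from 0.154 to 0.501. Mark3, a MARK kinase with broad expression, had rTg4510 minus tTA differences of 0.10, 0.05 and 0.19 in CA1, CA3 and DG. Dyrk1a, a kinase that primes tau for GSK3, differed by 0.04 in CA1 at its brightest probe set, 1428299_at, and by 0.81 (SE 0.28, adjusted p = 0.163) in DG at 1426226_at.

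Mark1, another MARK kinase, had 5 probe sets. Its brightest probe set, 1449630_s_at, read 6.93, 4.72, 6.70, 6.51 and 6.36 in rTg4510 CA1, against 6.03, 6.00, 5.47, 5.58 and 4.45 in tTA CA1, a difference of 0.74 (SE 0.37, adjusted p = 0.229). The 4.72 came from rTg4510 mouse4549, and without that mouse the probe set was called (1.12, adjusted p = 0.0146). Probe set 1419834_x_at differed by 0.36 (SE 0.19, adjusted p = 0.253), and the dim probe sets 1425509_at, 1425510_at and 1425511_at by -0.19, 0.34 and 0.06. Against DN CA1 1419834_x_at was higher by value, with a difference of 0.50 (SE 0.18, adjusted p = 0.0560) that missed the threshold. It was called with only the compared genotypes (0.50, adjusted p = 0.0345), in the 9-group model with the mouse as a block (0.51, adjusted p = 0.0290), after a second normalization, with array weights, without dim probe sets and with the Actb ratio (0.61, adjusted p = 0.0167), and without any 1 of rTg4510 mouse4549, tTA mouse4570, tTA mouse4637 and DN mouse4806.

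**Figure D3:**
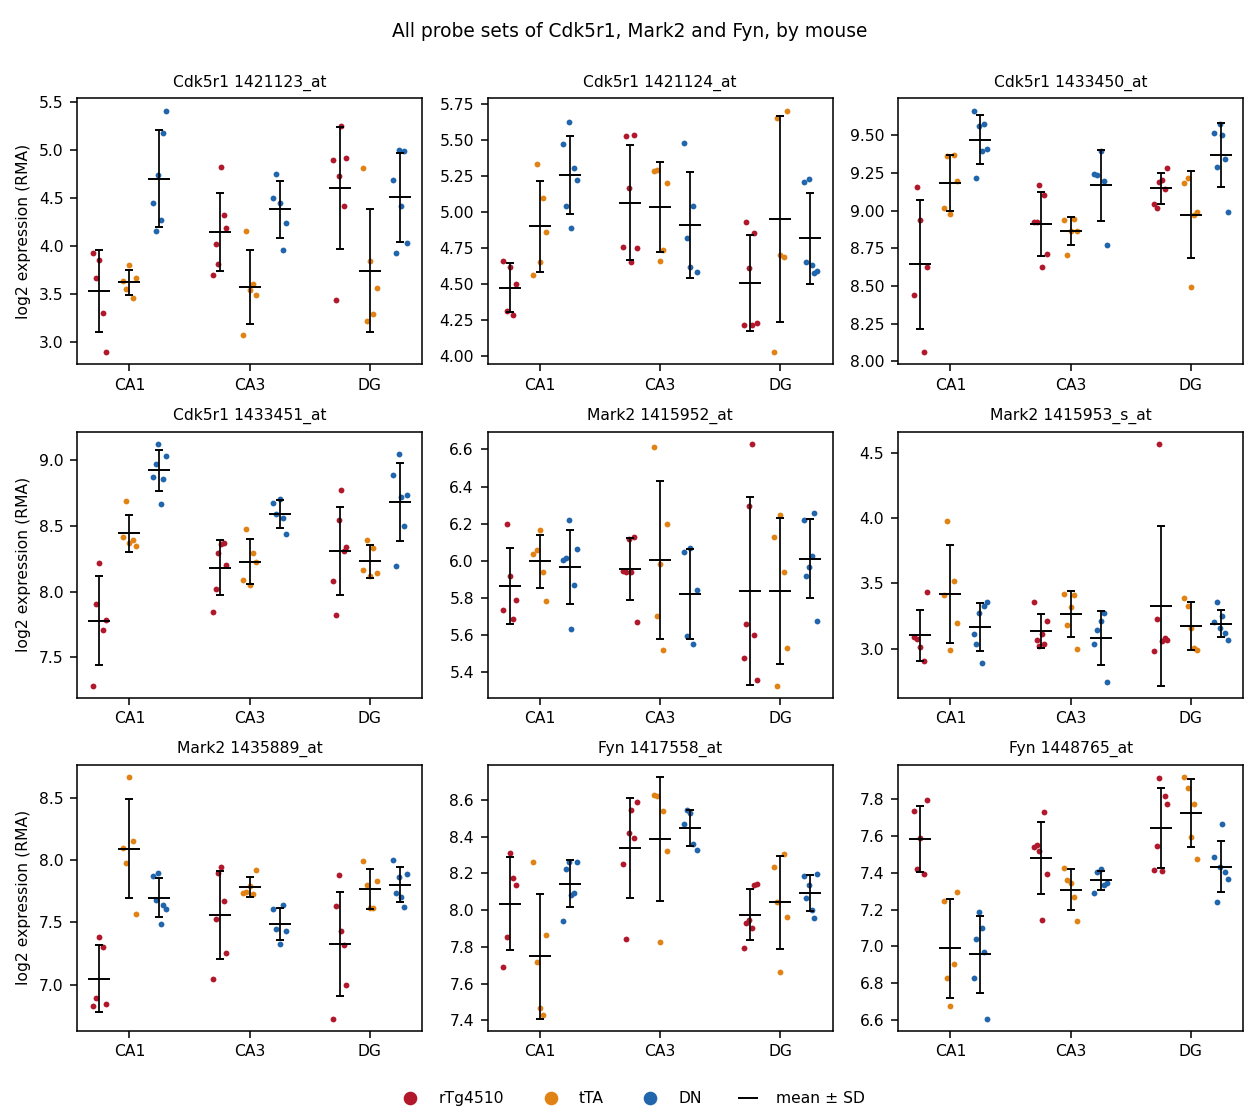
Log2 expression (RMA) of all probe sets of Cdk5r1 (4), Mark2 (3) and Fyn (2) in CA1, CA3 and DG, 1 point per mouse, with rTg4510, tTA and DN from left to right and black bars for the mean ± SD. The CA1 fall of rTg4510 mice is seen at Cdk5r1 1433451_at and Mark2 1435889_at, and the other Mark2 probe sets overlap between genotypes.

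Compared with DN mice, which carry neither transgene, rTg4510 CA1 had 9 of the 24 probe sets called (1 higher, 8 lower), where 23.4% of all probe sets were called (11.1% higher, 12.3% lower). Of microglial markers 14 of 14, of astrocyte markers 8 of 9, of oligodendrocyte markers 10 of 10, of endothelial markers 7 of 9 and of interneuron markers 7 of 8 were called higher in this comparison. All 4 CA1 pyramidal markers were called lower, at a mean level of 6.40 to 8.03 in rTg4510, against 9.12 to 9.41 in DN CA1, and so were 2 of 8 pan-neuronal markers. Their part in the result was not tested. All 4 Cdk5r1 probe sets were lower in rTg4510 mice, with differences of -1.17 to -0.78, and for each the highest rTg4510 array lay under the lowest DN array. Of these, 1421123_at was dim in both groups and 1421124_at in rTg4510 mice, and these 2 correlated at r = -0.09 over the 49 arrays. At 1433451_at the difference was -1.14 (SE 0.13, adjusted p = 1.81e-05), a level 0.453 times that of DN mice. Cdk5 1450674_at (-0.68, SE 0.18, adjusted p = 0.0117), Mark2 1435889_at (-0.65, SE 0.16, adjusted p = 0.00782) and Dyrk1a 1428299_at (-0.30, SE 0.07, adjusted p = 0.00459) were also lower and did not overlap with DN arrays. How many of all probe sets lacked overlap in this way was not counted. The Mark2 call was lost by the methods' least significant difference test on anti-log values (adjusted p = 0.0901). The dim Dyrk1a probe set 1451977_at (-0.74, SE 0.25, adjusted p = 0.0421) lost its call when any 1 of rTg4510 mouse4653 and mouse4666 and DN mouse4797, mouse4806, mouse4883 and mouse4886 was left out (adjusted p 0.0649 to 0.117), and was also lost with the Actb ratio and by the methods' least significant difference test on log2 values (adjusted p 0.0642 to 0.0720). Fyn 1448765_at was higher (0.63, SE 0.13, adjusted p = 0.00222). The brighter Fyn probe set, 1417558_at, was lower by value in rTg4510 than in DN CA1 and was not called. Fyn with its probe sets averaged was not called either (0.26, adjusted p = 0.111).

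In CA3 1 of the 24 probe sets was called between rTg4510 and DN mice, where 3.12% of all were: Cdk5r1 1433451_at averaged 8.18 ± 0.21 in rTg4510 (SD, n = 6) and 8.59 ± 0.11 in DN mice (SD, n = 5), with a difference of -0.41 (SE 0.11, adjusted p = 0.0465). It lost its call without any 1 of 10 of 16 mice (adjusted p 0.0539 to 0.132) and kept it only without rTg4510 mouse4621 and mouse4653, tTA mouse4570, mouse4580 and mouse4592 and DN mouse4886, and was also lost with only the compared genotypes, in the 9-group model with the mouse as a block, with a trended prior, with the Actb ratio and by the methods' least significant difference test on log2 values (adjusted p 0.0511 to 0.186). In DG 1 was called, where 8.86% of all were: Dyrk1a 1428299_at averaged 8.34 ± 0.24 in rTg4510 and 8.74 ± 0.13 in DN mice (SD, n = 6 each), with a difference of -0.41 (SE 0.11, adjusted p = 0.0289). It lost its call when any 1 of rTg4510 mouse4535, mouse4549, mouse4600 and mouse4666 and DN mouse4797, mouse4825, mouse4866 and mouse4883 was left out (adjusted p 0.0512 to 0.0689), and was also lost with the Actb ratio (adjusted p = 0.151). Glial markers moved in both subfields: 9 of 14 microglial and 5 of 9 astrocyte markers were called higher in rTg4510 than in DN CA3. In DG it was 9 of 14 and 6 of 9, and of 6 granule neuron markers 1 was higher and 2 lower. Their part in the results was not tested. Mark2 1435889_at was lower by value in rTg4510 DG and was not called. The 9-group model with the mouse as a block called it (-0.47, adjusted p = 0.0278). It was also called with array weights (adjusted p = 0.0218), without dim probe sets (adjusted p = 0.0412) and without any 1 of rTg4510 mouse4549 and mouse4600.

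The transactivator alone also came with differences. In tTA against DN CA1, 5 of the 24 were called, all lower in tTA, where 16.2% of all probe sets were called (8.85% lower). Glial markers moved here too, with 4 of 14 microglial and 4 of 9 astrocyte markers called higher in tTA CA1, and 8 of 14 and 6 of 9 in tTA CA3. In tTA DG 10 of 14 microglial markers were higher, at a mean level of 5.90 to 6.45 in tTA DG, against 4.62 to 5.14 in DN DG. Of 9 astrocyte markers 7 were higher and 1 lower there, and of 6 granule neuron markers 4 were lower and 1 higher. Their part in the results was not tested. Dyrk1a 1428299_at read 8.22, 8.05, 8.28, 8.30 and 8.10 in tTA CA1, against 8.43 to 8.60 (median 8.54) in DN CA1, without overlap (-0.34, SE 0.07, adjusted p = 0.00385). Cdk5r1 1433451_at was lower, with a difference of -0.48 (SE 0.13, adjusted p = 0.0224), as was its dim probe set 1421123_at, with -1.08 (SE 0.22, adjusted p = 0.00435). Mark3 1418316_a_at (-0.39, SE 0.12, adjusted p = 0.0429) lost its call without any 1 of 10 of 16 mice (adjusted p 0.0503 to 0.0973) and kept it only without rTg4510 mouse4535, mouse4549, mouse4600 and mouse4653, tTA mouse4580 and DN mouse4886. The dim Mark1 1425510_at (-0.49, SE 0.16, adjusted p = 0.0492) lost its call without any 1 of 13 of 16 mice (adjusted p 0.0534 to 0.128) and kept it only without tTA mouse4570 and DN mouse4797 and mouse4883. With the Actb ratio in the model, only 1 of the 5, Cdk5r1 1421123_at, was still called. Fyn 1417558_at was not among the 5. It was called lower in tTA mice in the 9-group model with the mouse as a block (-0.39, adjusted p = 0.0272). The same held with array weights (-0.38, adjusted p = 0.0436) and without tTA mouse4570 (-0.52, adjusted p = 0.0133).

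In tTA against DN CA3, 5 of the 24 were called, where 9.09% of all were. Cdk5 1450674_at was higher in tTA mice, at 8.27, 8.27, 7.95, 8.35 and 7.74 in tTA CA3, against 7.64, 7.46, 7.48, 7.72 and 7.70 in DN CA3, and the groups did not overlap (0.52, SE 0.13, adjusted p = 0.0201). This call was absent in the model of all 9 groups with the mouse as a block (adjusted p = 0.195), and it lost its call when any 1 of DN mouse4825 and mouse4866 was left out (adjusted p 0.0545 to 0.0589). Gsk3b 1451020_at was lower, at 7.28, 7.60, 7.42, 7.17 and 6.94 in tTA CA3, against 7.94, 7.86, 7.93, 7.65 and 7.86 in DN CA3, also without overlap (-0.57, SE 0.15, adjusted p = 0.0303), and it lost its call when any 1 of tTA mouse4570, mouse4626 and mouse4637 and DN mouse4797, mouse4825 and mouse4866 was left out (adjusted p 0.0550 to 0.0761). Cdk5r1 1433451_at (-0.37, SE 0.11, adjusted p = 0.0489) and 1421123_at (-0.81, SE 0.21, adjusted p = 0.0269) and Ppp2ca 1456390_at (-0.22, SE 0.06, adjusted p = 0.0435) were lower. Cdk5r1 1433451_at lost its call without any 1 of 10 of 16 mice (adjusted p 0.0573 to 0.119) and kept it only without rTg4510 mouse4535, mouse4549, mouse4621 and mouse4653, tTA mouse4580 and DN mouse4886. Cdk5r1 1421123_at lost its call when any 1 of tTA mouse4570, mouse4592 and mouse4637 and DN mouse4797, mouse4825 and mouse4866 was left out (adjusted p 0.0541 to 0.0728). Ppp2ca 1456390_at lost its call without any 1 of 13 of 16 mice (adjusted p 0.05001 to 0.107) and kept it only without rTg4510 mouse4535, mouse4549 and mouse4621. With the Actb ratio in the model, only 1 of the 5, Cdk5 1450674_at, was still called.

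In tTA against DN DG, 2 of the 24 were called, where 16.7% of all were. Dyrk1a 1428299_at read 8.37, 8.37, 7.91, 8.31 and 8.18 in tTA DG, against 8.58 to 8.92 (median 8.77) in DN DG, without overlap (-0.51, SE 0.12, adjusted p = 0.00585). Cdk5r1 1433450_at was lower, with a difference of -0.40 (SE 0.13, adjusted p = 0.0372), and lost its call when any 1 of tTA mouse4592, mouse4626 and mouse4637 and DN mouse4797, mouse4825, mouse4866 and mouse4883 was left out (adjusted p 0.0583 to 0.102). It was also lost with only the compared genotypes and with the Actb ratio (adjusted p 0.0774 to 0.0811). The Dyrk1a call was lost with the Actb ratio (adjusted p = 0.108) as well. That ratio averaged -0.61 in tTA DG and -0.30 in DN DG, and with it in the model the only call was Dyrk1a 1426226_at (-1.28, adjusted p = 0.0310). The model of all 9 groups with the mouse as a block called both, and also Cdk5r1 1433451_at (-0.45, adjusted p = 0.0128), Dyrk1a 1426226_at (-0.76, adjusted p = 0.0155) and the dim Cdk5r1 1421123_at (-0.77, adjusted p = 0.0459). Cdk5r1 1433451_at was also called with only the compared genotypes, without dim probe sets and without any 1 of rTg4510 mouse4549, rTg4510 mouse4621 and DN mouse4806. Whether the tTA minus DN difference in DG differed from that in CA1 or CA3 was tested for all 24, and 0 were called, where 1.65% and 1.24% of all probe sets were called. At an unadjusted limma p under 0.05 there were 2 and 3, and the share of all probe sets at that threshold was not counted. The mouse numbers of rTg4510 and tTA mice (mouse4535 to mouse4666) and of DN mice (mouse4797 to mouse4886) did not interleave. Whether DN tissue was processed at another time is unknown here, and any such batch and the DN group cannot be told apart.

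Some probe sets of these genes also differed by subfield, and DN mice give the pattern without either transgene. The subfield differences come from a model of all 49 arrays with the mouse as a random block. They can depart slightly from the differences of the group means. As a set, the 24 were called about as often as all probe sets in DN mice. For CA1 against CA3 the share was 12.5%, where 12.9% of all were called. For CA1 against DG it was 16.7%, where 17.5% of all were, and for CA3 against DG 25%, where 21.7% were. An excess of calls among the 24 was not tested in any genotype. Fyn 1448765_at was lowest in DN CA1, at 6.61 to 7.19 (median 7.01), against 7.29 to 7.42 (median 7.35) in DN CA3 and 7.24 to 7.67 (median 7.42) in DN DG. No DN CA1 array reached the lowest CA3 or DG array. The CA1 minus CA3 difference was -0.40 (SE 0.11, adjusted p = 0.00619), and it lost its call when DN mouse4886 was left out (adjusted p = 0.0613). The CA1 minus DG difference was -0.48 (SE 0.10, adjusted p = 0.000338), called whichever mouse was left out. The CA1 minus DG difference was -0.07 (SE 0.11, adjusted p = 0.753) in rTg4510 mice and -0.74 (SE 0.11, adjusted p = 2.12e-06) in tTA mice.

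Fyn's other probe set ordered the layers differently. At 1417558_at DN CA3 was highest, at 8.45 ± 0.10 (SD, n = 5), with 8.14 ± 0.13 in CA1 and 8.09 ± 0.10 in DG (SD, n = 6 each). The CA3 minus DG difference was 0.36 (SE 0.12, adjusted p = 0.0317), and it lost its call when any 1 of DN mouse4797, mouse4806, mouse4825, mouse4866 and mouse4883 was left out (adjusted p 0.0529 to 0.130). In tTA mice the CA1 minus CA3 difference was -0.64 (SE 0.13, adjusted p = 0.000316), called whichever mouse was left out.

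Ppp2ca was higher in CA3 than in DG in every genotype. At 1456390_at DN CA3 read 10.68, 10.81, 10.82, 10.72 and 10.75, against 10.23 to 10.51 (median 10.47) in DN DG, and no array overlapped (0.32, SE 0.06, adjusted p = 6.26e-05). The difference was 0.18 (SE 0.06, adjusted p = 0.0215) in rTg4510 mice and 0.28 (SE 0.06, adjusted p = 0.00116) in tTA mice. At 1417367_at it was 0.28 (SE 0.06, adjusted p = 0.000134) in rTg4510, 0.23 (SE 0.06, adjusted p = 0.00541) in tTA and 0.27 (SE 0.06, adjusted p = 0.000386) in DN mice. Of these 6, all but rTg4510 at 1456390_at were called whichever mouse was left out; that one lost its call when any 1 of rTg4510 mouse4549 and mouse4666 was left out (adjusted p 0.0591 to 0.0977). The sizes were small, from 1.13-fold to 1.25-fold. The share called of all probe sets in CA3 against DG was 19.1% in rTg4510, 17.9% in tTA and 21.7% in DN mice, with 7 of the 24 called in rTg4510, 5 in tTA and 6 in DN mice.

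Gsk3b was also higher in DN CA3 than in DN DG, at 7.94, 7.86, 7.93, 7.65 and 7.86 in CA3 and 7.05 to 7.52 (median 7.26) in DG, with no overlap (0.59, SE 0.15, adjusted p = 0.00322). The difference was 0.21 (SE 0.15, adjusted p = 0.357) in rTg4510 and 0.27 (SE 0.16, adjusted p = 0.270) in tTA mice. Gsk3a had a difference of 0.49 (SE 0.13, adjusted p = 0.00627) in rTg4510 mice, which lost its call when rTg4510 mouse4621 was left out (adjusted p = 0.124), and of 0.44 (SE 0.14, adjusted p = 0.0187) in DN mice, which lost its call when any 1 of DN mouse4825 and mouse4866 was left out (adjusted p 0.0577 to 0.197). Cdk5 1450674_at was higher in CA3 than in DG by 0.89 (SE 0.24, adjusted p = 0.00507) in tTA mice. The DG array of tTA mouse4570 read 5.67, against 7.29 to 7.89 in the other 4, and the difference lost its call when tTA mouse4570 was left out (adjusted p = 0.113).

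Between CA1 and the other layers the counts were 3 of 24 against CA3 and 4 of 24 against DG in rTg4510 mice (15% and 12.5% of all probe sets), 2 and 4 in tTA mice (12.7% and 15.9%), and 3 and 4 in DN mice (12.9% and 17.5%). In rTg4510 mice 5 of these 7 calls were probe sets of Cdk5r1, all lower in CA1, and 1 was Mark2 1435889_at (-0.50, SE 0.14, adjusted p = 0.0127). With its probe sets averaged Mark2 was not called in this contrast (-0.20, adjusted p = 0.228). Cdk5r1 1433451_at was lower in rTg4510 CA1 than in rTg4510 DG, with a difference of -0.52 (SE 0.13, adjusted p = 0.00330), called whichever mouse was left out. For the same probe set CA1 minus CA3 was 0.22 in tTA and 0.34 in DN mice, and CA1 minus DG was 0.21 in tTA and 0.24 in DN mice, none of them called. In DN mice its CA1 minus CA3 difference was called with array weights (adjusted p = 0.00574), without dim probe sets (adjusted p = 0.0369) and without any 1 of rTg4510 mouse4535 and DN mouse4866. Its CA1 minus DG difference was called with array weights (adjusted p = 0.0343). Averaged Cdk5r1 was called for CA1 minus CA3 in DN mice (0.34, adjusted p = 0.0271). The other calls of CA1 against CA3 or DG were of Cdk5, Fyn, Gsk3b, Mark1 and Ppp2ca, among them in DN mice the CA1 minus DG differences of Cdk5 1450674_at (0.63, SE 0.22, adjusted p = 0.0348) and Gsk3b 1451020_at (0.46, SE 0.15, adjusted p = 0.0210). The first lost its call when any 1 of DN mouse4797, mouse4825, mouse4866 and mouse4886 was left out (adjusted p 0.0582 to 0.190). The second lost its call when any 1 of DN mouse4806, mouse4883 and mouse4886 was left out (adjusted p 0.0621 to 0.111).

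**Figure D4:**
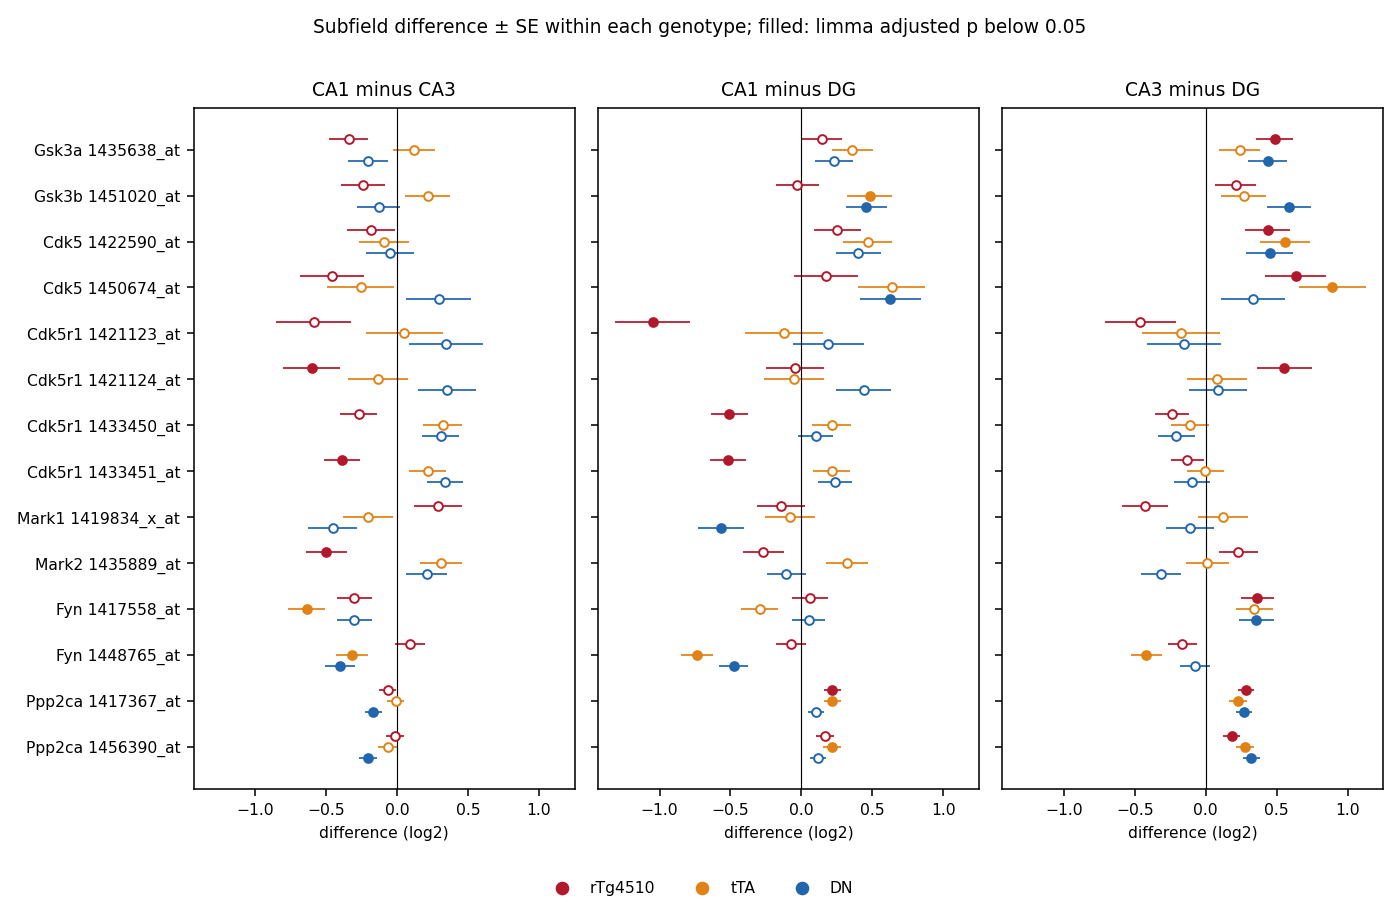
Differences between subfields (log2, points with SE bars) within rTg4510, tTA and DN mice, from top to bottom for each of the probe sets called in at least 1 of these contrasts, filled where the limma adjusted p was below 0.05. Ppp2ca is filled in CA3 minus DG for every genotype, and Cdk5r1 1433451_at lies at -0.39 and -0.52 in rTg4510 mice for CA1 minus CA3 and CA1 minus DG, left of both control genotypes.

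Other genes of the same pathways were counted over the brightest probe set of each gene, where 6.23% of 11807 named genes were called higher and 5.4% lower in rTg4510 than in tTA CA1. Of 24 other tau kinases measured, 0 were higher and 2 lower. These were the 2 calcium/calmodulin kinase subunits Camk2b (-0.85, adjusted p = 0.00277) and Camk2a (-0.53, adjusted p = 0.0256). Of 16 kinase activators and upstream regulators 2 were higher and 2 lower. Cdk5r2, which encodes the p35 relative p39, was lower (-0.72, adjusted p = 0.000295), as was the calcineurin regulator Rcan1 (-0.49, adjusted p = 0.0202). Cdk5r2 averaged 11.08 in rTg4510, 11.80 in tTA and 11.23 in DN CA1. For Cdk5r2 tTA was called above DN mice, and rTg4510 was not called against DN mice. Capn2, a calpain of the family that cuts p35 to p25, was higher (0.79, adjusted p = 0.00313), and so was Ptprc (CD45), a phosphatase of Src kinases that also marks microglia (2.32, adjusted p = 3.66e-05; dim in tTA mice).

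On the phosphatase side, 1 of 14 PP2A subunits and regulators was called in CA1, the striatin Strn4 (-0.50, adjusted p = 0.0173). Of 8 other tau phosphatases 1 was higher and 2 lower: Ppp1ca, a catalytic subunit of protein phosphatase 1 (-0.78, adjusted p = 0.00394), Ppp3r1, the regulatory subunit of calcineurin (-0.64, adjusted p = 0.0173), and Ppp3cc, a calcineurin catalytic subunit (0.63, adjusted p = 0.00822). Ppp3cc averaged 6.37 in rTg4510, 5.74 in tTA and 6.44 in DN CA1. For Ppp3cc tTA was called below DN mice (-0.70, adjusted p = 0.00228), and rTg4510 was not called against DN mice. Of 6 microtubule-associated substrates only Map4 was called (-0.29, adjusted p = 0.0235), and mouse Mapt, the endogenous tau gene, differed by 0.17 (adjusted p = 0.492). The median differences of the 5 lists ran from -0.26 to -0.01, against -0.04 over all named genes. In CA3 0 genes of these lists were called in limma between rTg4510 and tTA mice, where 0.618% of named genes were higher and 0.542% lower. In DG 1 was, the dim Capn1 (-0.79, adjusted p = 0.0452), where 0.423% were higher and 0.373% lower.

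Against DN mice 9 of the 24 other tau kinases were called in rTg4510 CA1, 8 of them lower, where 12.2% of named genes were higher and 12.5% lower. They included Camk2b (-1.27, adjusted p = 1.75e-05), Taok3 (-0.82, adjusted p = 0.000155) and the JNK gene Mapk10 (-0.78, adjusted p = 0.00307), while Rock1 was higher (0.84, adjusted p = 0.00137). In tTA against DN mice 6 were lower in CA1 and 6 in DG, where 8.52% and 9.49% of named genes were lower, and 2 were lower in CA3, where 4.59% were. The p38 kinase gene Mapk14 was called lower in tTA mice in each subfield, with differences of -0.62 in CA1, -0.50 in CA3 and -0.67 in DG (adjusted p = 0.00994, 0.0271 and 0.00101).

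The other lists moved both ways between tTA and DN mice, where 7.94% of named genes were higher in CA1, 4.41% in CA3 and 7.98% in DG. Of 16 kinase activators and upstream regulators 2 were higher and 1 lower in CA1, 3 and 0 in CA3, and 5 and 3 in DG. Akt2, a kinase that phosphorylates GSK3, was higher in tTA CA3 (0.79, adjusted p = 0.00144) and tTA DG (1.46, adjusted p = 0.000474). Cdk5r2 was higher in tTA CA1 (0.57, adjusted p = 0.000559) and tTA CA3 (0.37, adjusted p = 0.0129), where Cdk5r1 1433451_at was lower. Pdpk1, which encodes the AKT-activating kinase PDK1, was lower in tTA CA1 (-0.56, adjusted p = 0.00969) and tTA DG (-0.74, adjusted p = 0.00174).

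Of 14 PP2A subunits and regulators 1 was higher and 1 lower in tTA against DN CA1, 0 and 2 in CA3, and 3 and 3 in DG. The striatin Strn was lower in all 3, by differences of -0.58 in CA1, -0.43 in CA3 and -0.42 in DG (adjusted p = 0.00498, 0.0401 and 0.0123). Of 8 other tau phosphatases 1 was higher and 2 lower in CA1, 2 and 1 in CA3, and 1 and 1 in DG. Ppp3ca, a calcineurin catalytic subunit, was lower in each subfield (-0.50, adjusted p = 0.00632 in CA1, -0.31, adjusted p = 0.0350 in CA3 and -0.58, adjusted p = 0.000240 in DG), and Ppp5c, which encodes protein phosphatase 5, was higher in each (0.52, adjusted p = 0.0492 in CA1, 0.58, adjusted p = 0.00679 in CA3 and 0.80, adjusted p = 0.0100 in DG). Of 6 substrates only Map4 in CA1 was called (-0.25, adjusted p = 0.0290). In rTg4510 against DN CA1 2 activators were higher and 3 lower, 0 and 4 PP2A genes, 0 and 2 other phosphatases, and 1 and 1 substrates.

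For each member the genes whose 9 group means followed it most closely were sought among 6450 named genes, by Pearson's r over those means, which share mice and normalization. Cdk5r1 1433450_at was followed most closely by Mbtps1 and Sptbn4 (r = 0.97 each), Mark2 1435889_at by Ctdp1 (r = 0.96) and Prmt1 (r = 0.95), Gsk3a by Pithd1 (r = 0.97) and Vamp2 (r = 0.95), and Cdk5 1450674_at by Lin7b (r = 0.96) and Dctn3 (r = 0.95). For Fyn 1417558_at they were Ak4 and Clstn2 (r = 0.95 each), for Ppp2ca 1456390_at Oxr1 (r = 0.97) and Gdap1 (r = 0.96), and for Dyrk1a 1428299_at Cep70 and Rmnd5a (r = 0.97 each). For Mark3 they were Npepps and Mtmr7 (r = 0.99 each), for Gsk3b Slc37a3 (r = 0.97) and Atm (r = 0.95), and for Mark1 1449630_s_at Usp29 (r = 0.96) and Cat (r = 0.92). Such values are the highest of many and describe these 9 means only.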

How the data were processed

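RNA from laser-captured cells was amplified with the Ovation Pico WTA system and hybridized to 49 arrays, which read 22716 probe sets. The deposited log2 values were made by the authors with RMA (background correction, normalization between arrays and summarization of probes). Anti-log values are named in the study's methods, yet the deposited range of 1.944 to 13.826 is that of a log2 scale. The version of RMA and the set of arrays it ran on are not stated. After 90 control probe sets were left out, 22626 were tested, of which 18003 had 1 gene symbol in the platform annotation. Arrays have no read depth, so their number limits the precision.

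Genotypes were compared within each subfield with limma 3.58.1 in R 4.3.3, in 1 model of the 3 genotypes. Subfields, and differences of a genotype contrast between subfields, were tested in a model of all 49 arrays and 9 groups with the mouse as a random block (consensus correlation 0.117). The mouse number in the title names the animal: deviations from group means of the 47 pairs of arrays of 1 mouse correlated at a median of 0.12 (-0.15 to 0.32), against -0.01 for arrays of different mice. Of array pairs, 0 were identical. Adjustment over all probe sets followed Benjamini and Hochberg. The scripts were tested on simulated data.

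All probe sets of the members are named. Of the pathway lists, at most 4 called genes with the largest absolute difference are named per list and comparison, and per member the 2 genes most alike over group means. Cdk5r2 in tTA against DN DG is named in addition, since it was called in CA1 and CA3 as well. The members and lists were chosen with earlier results of these data known. Alternatives were other samples in the fit, a second quantile normalization, array weights, a trended prior, a filter on dim probe sets, averaged probe sets, the Actb ratio as a covariate, the methods' least significant difference test and leaving out each mouse. Human tau transcripts were not measured.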

Additional observations from a re-analysis of the deposited data

Results flagged for a closer look

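Within groups, 12 of 216 sets of values of a probe set held a mouse far from the others by Dixon's test, and chance alone gives about 1 in 20. In rTg4510 mice these were Mark1 1449630_s_at at 4.72 in CA1 of mouse4549 (others 6.36 to 6.93) and at 6.84 in CA3 of mouse4600, Mark1 1425510_at at 3.94 in CA1 of mouse4549, Mark1 1419834_x_at at 5.15 in CA3 of mouse4535, and Mark2 1415953_s_at at 4.57 in DG of mouse4600 (others 2.98 to 3.23). In tTA mice they were Cdk5 1450674_at at 5.67 in DG of mouse4570 (others 7.29 to 7.89), Cdk5r1 1433451_at at 8.69 in CA1 of mouse4580 and Ppp2ca 1417367_at at 9.87 in DG of mouse4637. In DN mice they were Cdk5 1422590_at at 5.48 in CA3 of mouse4886, Mark1 1449630_s_at at 6.75 in CA3 of mouse4797, Ppp2ca 1417367_at at 10.05 in CA3 of mouse4825 and Ppp2ca 1456390_at at 10.23 in DG of mouse4797.

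The rTg4510 minus tTA difference itself differed between subfields for 5 probe set tests in limma's 9-group model. Between CA1 and CA3 2 of the 24 were called, where 3.88% of all probe sets were. The difference was -0.81 for Mark2 1435889_at (adjusted p = 0.02) and -0.60 for Cdk5r1 1433451_at (adjusted p = 0.0469). The first lost its call without any 1 of 2 of 17 mice, and the second without any 1 of 14 of 17. Between CA1 and DG 3 of the 24 were called, where 5.45% of all probe sets were. The difference was -0.72 for Cdk5r1 1433450_at (adjusted p = 0.0144), -0.73 for Cdk5r1 1433451_at (adjusted p = 0.00999) and 0.66 for Fyn 1448765_at (adjusted p = 0.00543). Of these, only Cdk5r1 1433450_at lost its call with 1 mouse left out, for 2 of 17 mice.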

How the results depend on the processing

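Of 72 calls of a member probe set in a comparison, 29 were lost under at least 1 other setting and 42 without at least 1 mouse, and 0 changed sign. In rTg4510 against tTA CA1 6 were reported and 4 to 6 were called under the other settings of the fit. In tTA against DN CA1 (5 reported) it was 3 without dim probe sets, 1 with the Actb ratio, and 3 by the methods' least significant difference test on log2 or anti-log values. In rTg4510 against DN CA3 (1) it was 0 with only the compared genotypes, in the 9-group model with the replicate block, with a trended prior, with the Actb ratio, by the least significant difference test on log2 values and with averaged probe sets. In tTA against DN CA3 (5) it was 2 with the replicate block, 3 after a second normalization, 3 without dim probe sets, 1 with the Actb ratio, 2 by the least significant difference test on log2 values and 2 genes with averaged probe sets. With the replicate block 1 was called in rTg4510 against tTA DG (0 reported), 2 in rTg4510 against DN DG (1) and 5 in tTA against DN DG (2). Array weights gave 2, dim probe sets left out 2, the Actb ratio 0 and averaging 0 in rTg4510 against DN DG, and the filter gave 4 and the Actb ratio 1, neither of the 2 reported, in tTA against DN DG. Averaged probe sets gave 1 gene for CA1 against CA3 and 3 for CA3 against DG in rTg4510 mice, 4 and 3 in DN mice, and 1 for the rTg4510 minus tTA difference between CA1 and CA3. Array weights, a trended prior and no replicate block each gave 1 for CA1 against CA3 in tTA mice (2). In DN mice array weights gave 8 (3) for CA1 against CA3 and 9 (4) for CA1 against DG, and the filter 5 for CA1 against CA3. The rTg4510 minus tTA difference between CA1 and CA3 (2) had 1 call after a second normalization and 1 with no replicate block. The cause of these shifts was not tested. Without 1 mouse at a time the counts ran from 4 to 7 in rTg4510 against tTA in CA1, 8 to 10 in rTg4510 against DN in CA1, 3 to 5 in tTA against DN in CA1, 0 to 1 in rTg4510 against tTA in CA3, 0 to 2 in rTg4510 against DN in CA3, 0 to 6 in tTA against DN in CA3, 0 to 1 in rTg4510 against tTA in DG, 0 to 1 in rTg4510 against DN in DG, 1 to 4 in tTA against DN in DG. Between subfields they ran from 1 to 3 in CA1 against CA3 in rTg4510, 3 to 4 in CA1 against DG in rTg4510, 2 to 8 in CA3 against DG in rTg4510, 1 to 3 in CA1 against CA3 in tTA, 3 to 6 in CA1 against DG in tTA, 3 to 7 in CA3 against DG in tTA, 1 to 4 in CA1 against CA3 in DN, 1 to 5 in CA1 against DG in DN, 3 to 7 in CA3 against DG in DN. For differences of contrasts they ran from 0 to 3 in rTg4510 minus tTA, CA1 minus CA3, 2 to 4 in rTg4510 minus tTA, CA1 minus DG, 0 to 0 in rTg4510 minus tTA, CA3 minus DG, 0 to 0 in tTA minus DN, DG minus CA1, 0 to 0 in tTA minus DN, DG minus CA3. Over all probe sets, rTg4510 against tTA CA1 had 2405 calls, against 1056 with only those genotypes and 1313 with the Actb ratio. CA3 had 256, against 25 with only those genotypes, 150 with array weights and 151 or 169 by the least significant difference test on log2 or anti-log values. DG had 177, against 1 with only those genotypes, 704 with the replicate block and 60 with the Actb ratio. The Actb ratio gave 866 (3656) in tTA against DN CA1, 1083 (2057) in CA3 and 1265 (3769) in DG, and 275 (705) in rTg4510 against DN CA3 and 1021 (2005) in DG. In rTg4510 against DN CA3 array weights gave 1364 and the least significant difference test 456 or 458. Array weights gave 5107 (2920) for CA1 against CA3 and 5818 (3956) for CA1 against DG in DN mice, and no replicate block 526 (878) for the rTg4510 minus tTA difference between CA1 and CA3. That between CA3 and DG had 2, and 0 after a second normalization, with array weights or with no replicate block. The filter on dim probe sets tested fewer probe sets by construction.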
